A study of Mus musculus with 2 samples.

Results

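The RNA of 10 purinergic receptor genes was followed over the nuclei of the mouse vagus nerve ganglia. They are P2rx2, P2rx3, P2rx4, P2rx5, P2rx6 and P2rx7, which encode P2X channels, and P2ry1, P2ry2, P2ry13 and P2ry14, which encode P2Y receptors. The members were chosen by symbol, as 10 of the 32286 features counted, and each was found once. Their level is given as unique molecular identifiers (UMIs, each standing for 1 captured RNA molecule) per 10000 UMIs of the nuclei named. The ganglia came from Rosa26-floxed-STOP-Cas9-eGFP mice on standard chow, bought at 8 to 9 weeks of age and injected in the liver with AAVrg-Cre, a virus taken up by nerve endings, 4 weeks before collection. All mice carried this allele and received this virus, so no untreated or wild-type group stands beside them. Nuclei of 14 ganglia from 7 females and of 16 ganglia from 8 males were pooled by sex, and each pool gave 1 library. Sex and library therefore cannot be told apart, nuclei of a library are not replicates, and no test was run or p-value given. Each contrast between classes was made within each library.

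Purinergic receptors sense ATP, ADP, UTP and related nucleotides outside the cell. P2X receptors are channels of joined subunits that open when ATP binds, whereas P2Y receptors signal through G proteins. In sensory neurons, P2X2 and P2X3 subunits can form a joint channel and are known for carrying ATP signals from visceral tissue, while P2X7 and P2X4 are known from macrophages and microglia.

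The female library held 3791 nuclei with 17435300 UMIs and the male library 4923 nuclei with 27529730 UMIs, with a median per nucleus of 2381 and 2658. Barcodes carry a library number but no sex, and the sex was assigned because the number of nuclei in each library equals that stated for the study's females or males. Xist, the female-specific RNA, was counted 13424 times in female and 7 times in male nuclei, and the Y-linked Ddx3y 12 and 1789 times. A feature listed as EGFP had 1 and 0 UMIs. The study names another sequence as added to its reference, the poly(A) of human growth hormone from AAVrg-Cre. Which of the 2 sequences this feature holds is not stated. The libraries shared 8 barcodes. Clustering without the members gave 20 clusters, named from markers with the ending "-like": neuron-like (2273 nuclei in 5 clusters), glia-like (2624 nuclei in 3 satellite glia-like and 2 myelinating Schwann-like clusters) and macrophage-like (275 nuclei in 1 cluster) were compared. All 10 macrophage markers were at least 1.5-fold above the other clusters in the macrophage-like cluster, with Mrc1 at 12.1 against 0.0479 UMIs per 10000 in neuron-like nuclei, while the microglial genes Tmem119 and Sall1 were at 0.0524 and 0.0874 there and Siglech at 1.01. The samples also held nuclei foreign to a ganglion, with 402 cerebellar granule-like and 328 pituitary-like nuclei. Intervals are 95% and exact, and they cover counting error only.

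Neuron RNA was counted in every class. The 16 genes of the neuron list summed to 80.8 UMIs per 10000 in female and 91.4 in male neuron-like nuclei, and to 39 and 69 in glia-like nuclei. In endothelial-like nuclei, which should lack them, the sums were 31.9 and 62.8. No class was free of this RNA, and in every class it was higher in the male library.

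P2rx3, the subunit that gives rapidly desensitizing ATP channels (chr2:84998583-85037462, minus strand), was the P2X gene with a clear neuronal excess. Its only overlap, of 229 bases with Ssrp1 on the other strand, is with a gene at 0.221 in neuron-like and 0.328 in glia-like nuclei. Its level was 1.21 (1.13 to 1.29, 961 UMIs) in female and 1.02 (0.971 to 1.06, 1869 UMIs) in male neuron-like nuclei. Glia-like nuclei had 0.296 (0.237 to 0.366, 85 UMIs) and 0.424 (0.365 to 0.489, 187 UMIs). The log2 ratio of neuron-like over glia-like was 2.02 (1.71 to 2.37) (female library) and 1.26 (1.04 to 1.49) (male library), so that the excess passed 2-fold in each.

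P2rx2, the partner subunit (chr5:110339812-110343212, minus strand), was higher in neuron-like nuclei too, but by less. Female nuclei had 0.509 (0.461 to 0.562, 405 UMIs) in the neuron-like and 0.276 (0.218 to 0.343, 79 UMIs) in the glia-like class. Male nuclei had 0.626 (0.591 to 0.663, 1151 UMIs) and 0.376 (0.321 to 0.438, 166 UMIs). The log2 ratios were 0.88 (0.54 to 1.25) and 0.73 (0.50 to 0.98), which did not reach 2-fold. A gene is called here when its ratio, with 0.5 UMIs added to both sums, is at least 2-fold in both libraries and it has at least 20 UMIs.

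Set against the neuron RNA of each class, P2rx2 was much alike in glia-like and neuron-like nuclei, while P2rx3 was not. For every 100 UMIs of the neuron list there were 0.631 UMIs of P2rx2 in female and 0.685 in male neuron-like nuclei. The same figure in glia-like nuclei was 0.707 (0.56 to 0.882) and 0.546 (0.466 to 0.635). The female interval holds the value of neurons and the male interval lies below it. P2rx3 had 1.5 and 1.11 in neuron-like but 0.761 and 0.615 in glia-like nuclei. P2rx2 was seen in 24.1% and 33.1% of female and male neuron-like nuclei, at median depths of 5776 and 7573.5 UMIs. It was seen in 1.84% and 10.9% of endothelial-like nuclei, at 2103 and 2325 UMIs. With each nucleus thinned to 1000 UMIs, the shares were 4.66% and 7.6% in neuron-like against 1.4% and 3.11% in endothelial-like nuclei, and 2.65% and 4.08% in glia-like nuclei.

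**Figure D1:**
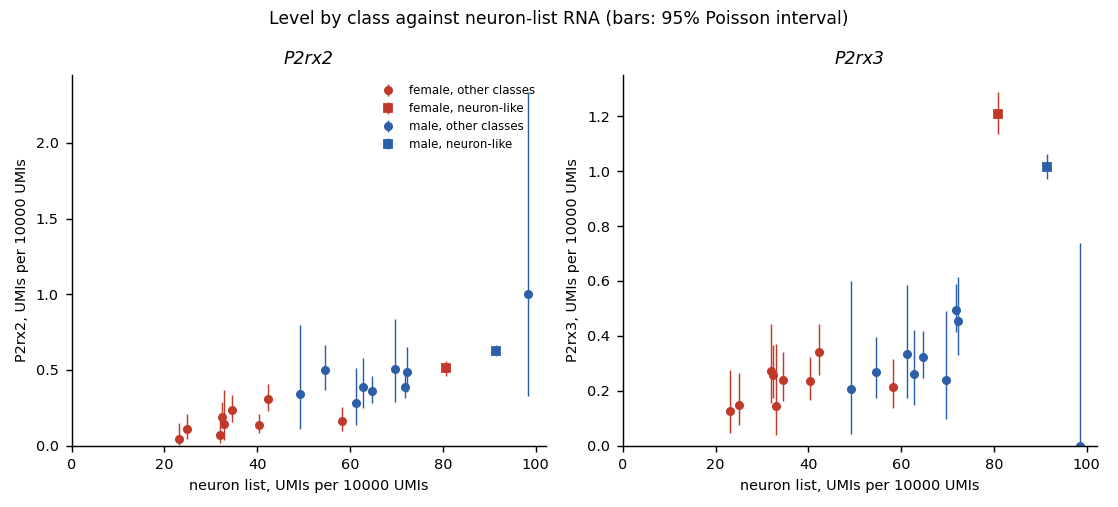
Level of P2rx2 (left) and P2rx3 (right) in each named class and library, in UMIs per 10000 UMIs, against the summed level of the neuron list on the same scale, with 95% Poisson intervals as bars. Squares are neuron-like nuclei and circles the other classes. For P2rx3 both squares, at 1.21 and 1.02, lie above every circle. The male circle of P2rx2 farthest to the right is the granule-like class, with 24 nuclei and 5 UMIs.

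**Figure D2:**
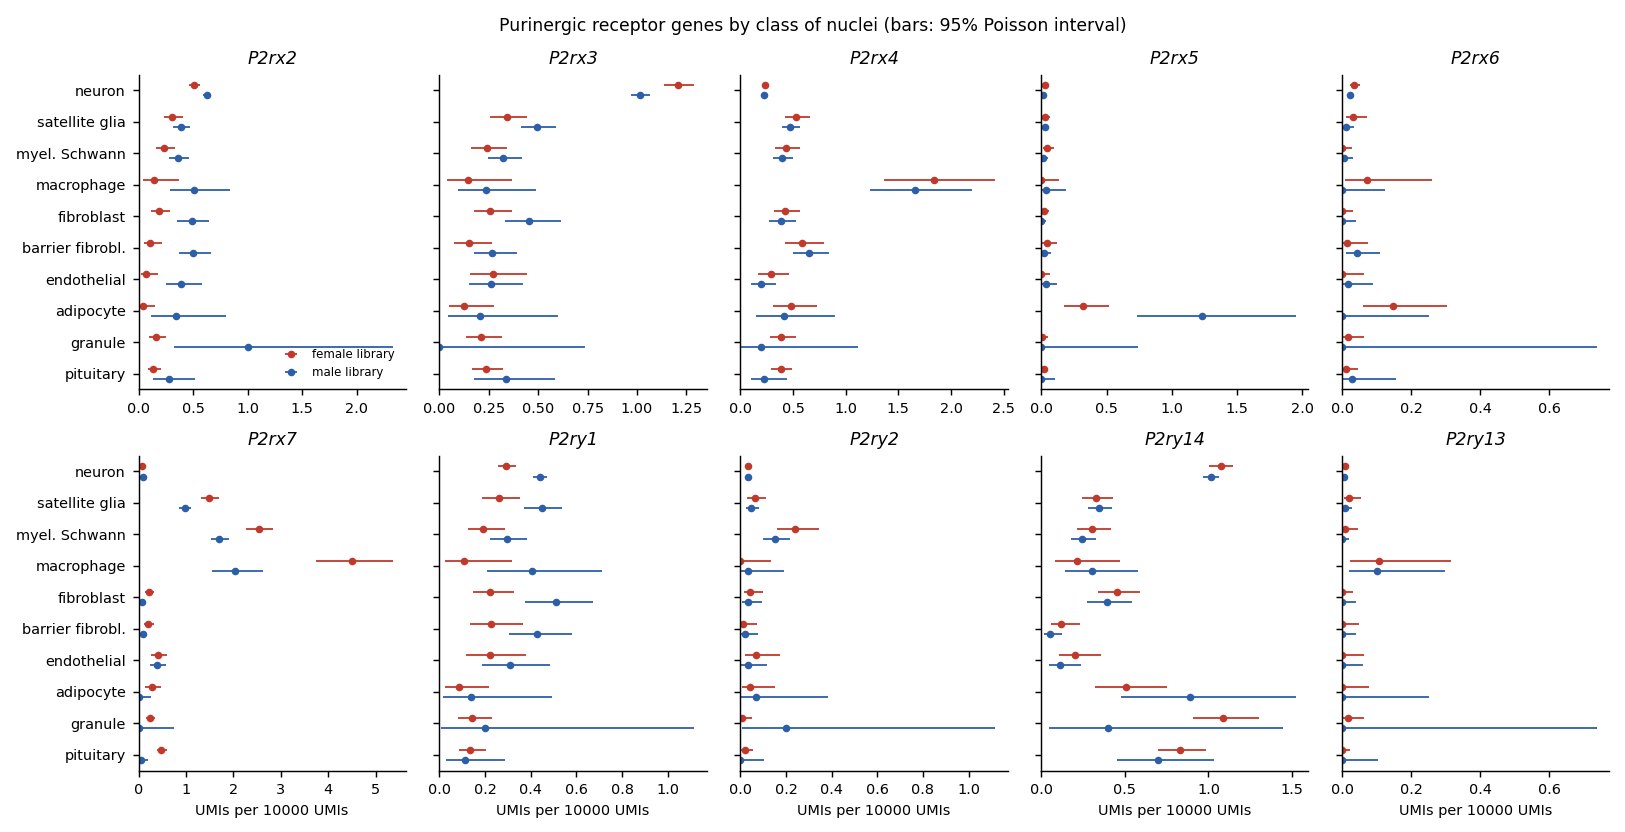
Level of the 10 receptor genes in each class of nuclei, in UMIs per 10000 UMIs (each panel with its own linear axis), with points for the female and male library and 95% Poisson intervals as bars. P2rx3 is highest in neurons, P2rx4 and P2rx7 are highest in macrophage-like nuclei, and P2rx5 is highest in adipocyte-like nuclei.

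Of the 10 members, all had enough UMIs to be tested between neuron-like and glia-like nuclei. P2rx3 and P2ry14 were called higher in neuron-like nuclei, beside 13.3% of all genes tested. P2rx7 and P2ry2 were called higher in glia-like nuclei, beside 13%. The median log2 ratio was -0.07 over the members and -0.13 over all genes tested.

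Within the neurons, P2rx2 divided the placode-derived nodose from the neural crest-derived jugular type. Nodose-like sub-clusters (763 nuclei in 4 of 12) were named from a list that includes Phox2a, Htr3a, Htr3b, Cckar and Npy2r, and jugular-like ones (562 nuclei in 5) from one that includes Prdm12, Drgx (listed as Prrxl1), Tlx3 and Runx1. A type was given where its list stood at least 0.5 above the other in mean log2 fold, with no minimum for the list itself, so that nodose-like sub-cluster 2 and jugular-like sub-cluster 10 carry names although their own list was below the other sub-clusters, at -0.68 and -0.39. In sub-cluster 10 Prdm12 was at 0.867 and Htr3a at 0.309, but Runx1 was at 0.3 against 4.02 over all jugular-like nuclei. Htr3a was at 1.21 and 0.308, and Prdm12 at 0.0946 and 1.29, in nodose-like and jugular-like nuclei. P2rx2 was at 0.868 (0.769 to 0.977, 277 UMIs) in female and 1.03 (0.956 to 1.11, 737 UMIs) in male nodose-like nuclei. Jugular-like nuclei had 0.0552 (0.0327 to 0.0872, 18 UMIs) and 0.106 (0.0817 to 0.137, 62 UMIs), which is below the level in glia-like nuclei of the same library. The log2 ratio of nodose-like over jugular-like was 3.94 (3.29 to 4.75) and 3.26 (2.90 to 3.67). P2rx2 was the only member called in this direction, beside 5.74% of genes tested.

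P2rx3 did not divide the types in this way. Its levels were 1.45 (1.32 to 1.58) and 1.39 (1.31 to 1.48) in nodose-like and 1.02 (0.917 to 1.14) and 0.852 (0.779 to 0.93) in jugular-like nuclei of the female and male library. The log2 ratios of 0.50 (0.29 to 0.70) and 0.71 (0.55 to 0.87) stayed under 2-fold.

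The jugular-like level of P2rx3 came mainly from 1 sub-cluster. Sub-cluster 6, with Grik1, Prkcq and Mrgprd among its leading genes, had 2.47 (2.15 to 2.81, 222 UMIs) in female and 2.13 (1.92 to 2.36, 360 UMIs) in male nuclei. That is 582 of the 830 UMIs of P2rx3 in jugular-like nuclei. In the other jugular-like sub-clusters, the level over both libraries was 0.601 in sub-cluster 10, 0.36 in sub-cluster 8 (led by Gfra3, and high in the peptide genes Tac1 and Calca), 0.174 in sub-cluster 12 (led by the cold channel gene Trpm8) and 0.132 in sub-cluster 11. The interval of sub-cluster 6, 2.25 (2.07 to 2.44), did not overlap that of the next, nodose-like sub-cluster 2 at 1.72 (1.59 to 1.86), over both libraries. Within single libraries they did not overlap either, with 2.47 (2.15 to 2.81) and 1.87 (1.61 to 2.15) in the female, where the ends meet within rounding, and 2.13 (1.92 to 2.36) and 1.66 (1.5 to 1.83) in the male. P2rx2 was at 0.0222 and 0.0769 in sub-cluster 6.

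P2rx2 was highest in nodose-like sub-cluster 7, led by Rmst, St18 and C1ql3. It had 1.45 (1.17 to 1.78, 92 UMIs) in female and 1.77 (1.56 to 2.01, 250 UMIs) in male nuclei. The other nodose-like sub-clusters had 0.913, 0.703 and 0.79 over both libraries, in sub-clusters 2, 4 and 5. Sub-cluster 1, unnamed for its low depth, had 0.677 of P2rx2 and 1.2 of P2rx3. P2rx2 and P2rx3 were both low in sub-cluster 9, at 0.155 and 0.15. The sympathetic list led this sub-cluster, with Dbh at 4.3, and 125 of its 131 nuclei were male. Sub-cluster 3, left unnamed because glial genes led it, had 0.953 and 0.961. The plot over the neuron sub-clusters shows these levels by library.

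**Figure D3:**
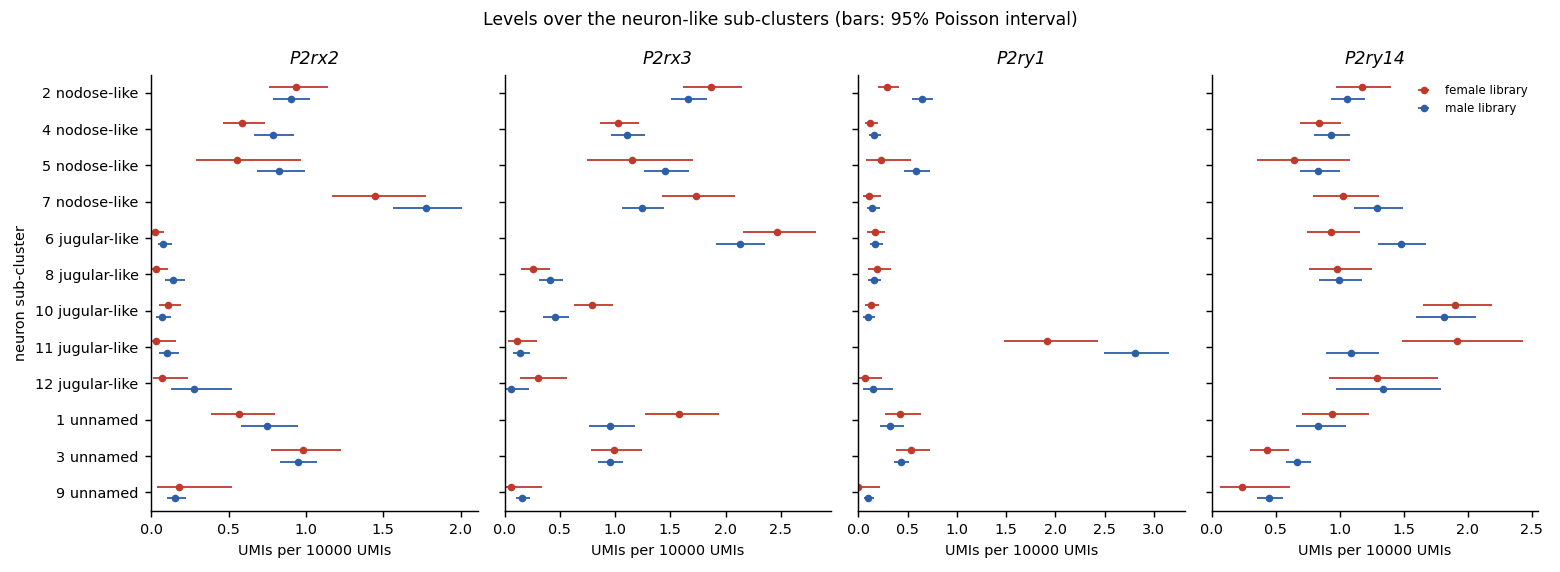
Level of P2rx2, P2rx3, P2ry1 and P2ry14 in the 12 neuron-like sub-clusters, in UMIs per 10000 UMIs, with points for each library and 95% Poisson intervals as bars. P2rx2 is low in all 5 jugular-like sub-clusters, P2rx3 peaks in sub-cluster 6, and P2ry1 stands out in sub-cluster 11.

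UMIs of both P2rx2 and P2rx3 were found in 86 of 193 female and 226 of 570 male nodose-like nuclei, 44.6% (37.4 to 51.9) and 39.6% (35.6 to 43.8) by Clopper-Pearson intervals. In jugular-like nuclei the shares were 2.7% (5 of 185) and 5.57% (21 of 377). Of female nodose-like nuclei with P2rx2, 81.9% also had P2rx3, against 62.5% of those without, and in males 72.4% against 62.8%. Nuclei with P2rx2 were also deeper, with a median of 14542 against 9018.5 UMIs (female library) and 12893 against 7102 (male library). Thinned to 1000 UMIs, 11 of 763 nodose-like and 0 of 562 jugular-like nuclei had both, where a count of 0 allows up to 3. P2rx3 was then seen in 14.3% (7.35 to 24.1) of nodose-like nuclei with P2rx2 and in 13.1% (10.7 to 15.9) of the others. By library this was 17.2% (8.9 to 28.7) against 13.2% in the male, and 0 of 13 nuclei (up to 24.7%) against 12.8% in the female library, so that all 11 nuclei with both were male. The intervals overlap, and no tendency to be seen together was detectable at equal depth. Thinning was a single random draw. With only 11 nuclei holding both, the comparison cannot decide whether there is such a tendency or whether the libraries differ. The part of depth in the difference seen before thinning was not tested.

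P2rx7 and P2rx4 had the opposite pattern, with the lowest or near-lowest levels in neurons. P2rx7 (chr5:122643911-122691432, plus strand) encodes a channel that opens at high ATP and drives inflammasome signalling in macrophages. P2rx4 (chr5:122707544-122729738, plus strand), its neighbour on the same strand, encodes a channel found on lysosomes and the surface of macrophages and microglia. As both were highest in macrophage-like nuclei, the 250 bases before their start sites (RefSeq, GRCm38.p6, plus strand) are shown, with those of P2ry13 (minus strand), the third gene called there. The letters GAGGAA, the core bound by the macrophage factor PU.1, and their reverse complement TTCCTC were searched on both strands and are printed in capitals.

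P2rx7, chr5:122643677-122643926: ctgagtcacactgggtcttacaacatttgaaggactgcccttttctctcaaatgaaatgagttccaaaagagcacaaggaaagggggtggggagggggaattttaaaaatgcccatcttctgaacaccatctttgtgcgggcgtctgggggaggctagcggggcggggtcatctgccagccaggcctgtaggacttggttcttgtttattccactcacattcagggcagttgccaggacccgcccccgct
P2rx4, chr5:122707294-122707543: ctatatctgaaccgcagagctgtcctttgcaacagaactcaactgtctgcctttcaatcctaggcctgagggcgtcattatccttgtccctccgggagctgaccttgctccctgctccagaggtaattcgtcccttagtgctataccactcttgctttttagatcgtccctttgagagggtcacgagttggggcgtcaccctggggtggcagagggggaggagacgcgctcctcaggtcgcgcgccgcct
P2ry13, chr3:59210883-59211132: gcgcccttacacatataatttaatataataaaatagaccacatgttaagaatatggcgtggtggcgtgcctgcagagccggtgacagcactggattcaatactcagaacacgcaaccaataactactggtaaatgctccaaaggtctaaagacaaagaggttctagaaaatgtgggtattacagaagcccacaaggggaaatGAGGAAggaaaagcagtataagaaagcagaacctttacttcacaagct

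P2ry13 held 1 match and P2rx7 and P2rx4 held 0 each, while 23.3% of all 32851 such promoters held at least 1. A match was also found at P2rx6 and at all 4 entries of P2ry14, which was called lower in macrophage-like nuclei, and none at P2ry1 and P2ry2. The P2ry14 entries chr3:59131329-59131578 and chr3:59131119-59131368 overlap and hold the same match. The table has a further start of P2rx7 at chr5:122650133-122650382, also with 0 matches. It held no entry for P2rx2, P2rx3 and P2rx5.

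P2rx7 was at 4.5 (3.75 to 5.37, 125 UMIs) in female and 2.04 (1.55 to 2.62, 60 UMIs) in male macrophage-like nuclei. Neuron-like nuclei had 0.0805 (0.062 to 0.103, 64 UMIs) and 0.101 (0.0872 to 0.117, 186 UMIs). The log2 ratio of macrophage-like over neuron-like was 5.80 (5.36 to 6.26) and 4.34 (3.89 to 4.76). A single nucleus gave 13 of the 125 female and 9 of the 60 male UMIs.

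Glia carried most of the P2rx7 RNA counted, with 1120 of 1792 UMIs, or 62.5%, although glia-like nuclei held 16.2% of all UMIs. Its level in myelinating Schwann-like nuclei was 2.54 (2.27 to 2.84) (female library) and 1.7 (1.52 to 1.91) (male library). Satellite glia-like nuclei had 1.49 (1.31 to 1.69) and 0.973 (0.857 to 1.1), below the Schwann-like level in each library without overlap of the intervals. In the male library the macrophage-like and Schwann-like intervals did overlap, whereas in the female they did not. The log2 ratio of neuron-like over glia-like was -4.59 (-4.99 to -4.22) and -3.65 (-3.90 to -3.41). Among neuron sub-clusters P2rx7 was highest in sub-cluster 3, at 0.332 (0.274 to 0.398), where the satellite glia list stood 1.95 above the other neuron sub-clusters in mean log2 fold. The part of glial RNA in that level was not tested.

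P2rx4 was at 1.84 (1.37 to 2.42, 51 UMIs) and 1.66 (1.23 to 2.2, 49 UMIs) in macrophage-like nuclei of the female and male library, and at 0.233 (0.2 to 0.269) and 0.227 (0.206 to 0.25) in neuron-like nuclei. The log2 ratios were 2.99 (2.50 to 3.44) and 2.88 (2.41 to 3.30). The next class was barrier fibroblast-like nuclei, at 0.624 (0.51 to 0.755) over both libraries, and its interval did not overlap that of macrophage-like nuclei. Glia-like nuclei had 0.488 (0.411 to 0.576) and 0.442 (0.382 to 0.508). Their excess over neurons lay at the 2-fold limit, with log2 ratios of -1.07 (-1.39 to -0.74) and -0.96 (-1.21 to -0.71), and was not called. Between neuron sub-clusters P2rx4 ranged from 0.117 in sub-cluster 11 to 0.309 in sub-cluster 8 over both libraries, and the intervals of 10 sub-clusters overlapped that of the highest.

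Over all members tested between these classes, P2rx4, P2rx7 and P2ry13 were called higher in macrophage-like nuclei, beside 16.0% of genes. The call of P2ry13 rests on 6 and 17 UMIs and is lost with a minimum of 50 UMIs, in nuclei over 2000 UMIs, against named neuron sub-clusters only, and in each library alone, where it has under 20 UMIs. P2rx3 and P2ry14 were called higher in neuron-like nuclei, beside 9.29%. The macrophage-like nuclei held few UMIs, 277532 (female library) and 294806 (male library), so that P2rx5, P2rx6 and P2ry2 rested on 1 or 2 UMIs there over both libraries. For P2rx3 the counts in macrophage-like nuclei were 4 and 7, with log2 ratios of -2.90 (-4.95 to -1.71) and -2.0 (-3.42 to -1.05). The plot of ratios gives every member in each library.

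**Figure D4:**
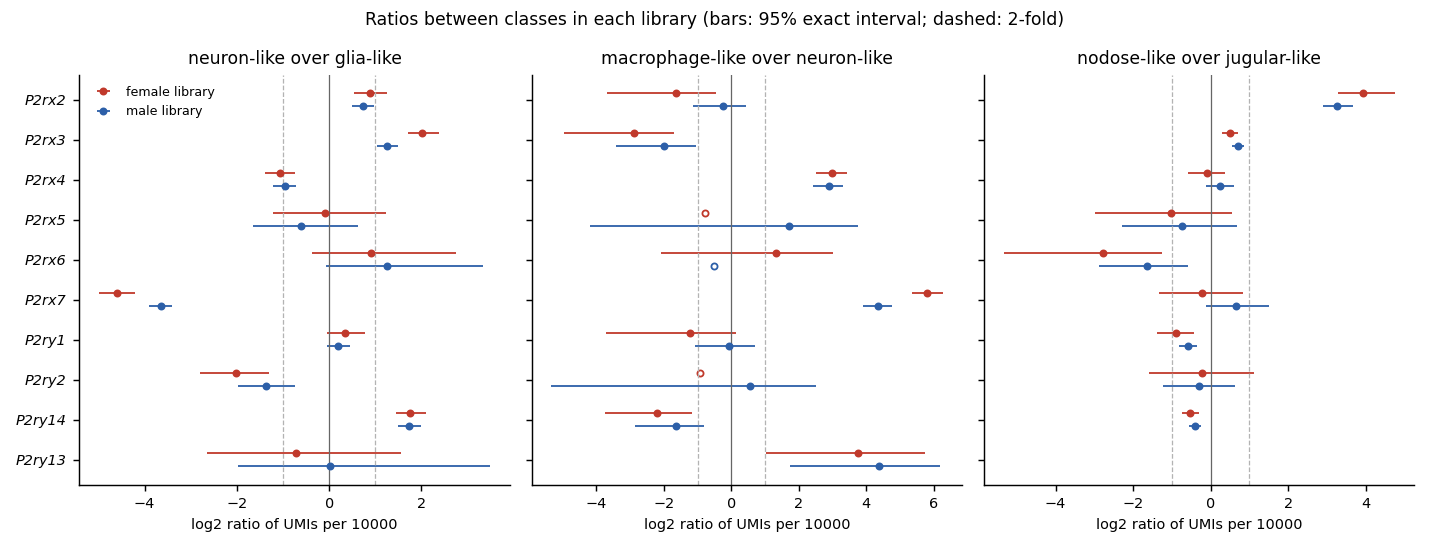
Log2 ratio of the level of each gene between classes in the female and male library, with 95% exact intervals as bars and dashed lines at 2-fold. Open circles have no UMI in 1 class, so that their interval has no lower end, and P2ry13 had too few UMIs to be shown for nodose-like over jugular-like. P2rx7 and P2rx4 lie to the right of the dashed line for macrophage-like over neuron-like, and P2rx2 for nodose-like over jugular-like.

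P2rx5 and P2rx6 were sparse. P2rx5 (chr11:73160421-73172685, plus strand), known from brown and beige fat, had 124 UMIs in all, and 33 of them lay in the 157 adipocyte-like nuclei, which express Plin1 (5.17) and the brown fat gene Ucp1 (4.44). Its level there was 0.316 (0.177 to 0.52, 15 UMIs) (female library) and 1.23 (0.731 to 1.95, 18 UMIs) (male library), and the log2 ratio of male over female was 1.96 (0.90 to 3.06) over 116 female and 41 male nuclei. In neuron-like nuclei it was at 0.0302 and 0.0152.

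P2rx6 (chr16:17561885-17577800, plus strand), whose subunit forms channels poorly on its own, had 101 UMIs, of which 44 came from jugular-like sub-cluster 10, led by Tafa1 and Grm8. The level there was 0.202 (0.125 to 0.309, 21 UMIs) in female and 0.174 (0.11 to 0.261, 23 UMIs) in male nuclei. The next sub-cluster had 0.0342 over both libraries. Among the classes, adipocyte-like nuclei had 7 UMIs, all female. The UMIs of sub-cluster 10 were spread over 13 female and 16 male nuclei. The gene overlaps Slc7a4 on the other strand, which was at 0.0592 in this sub-cluster and at 0.0598 over all nuclei. P2rx6 was called higher in jugular-like than in nodose-like nuclei, with log2 ratios of -2.78 (-5.34 to -1.25) and -1.64 (-2.89 to -0.58), as the only member beside 5.48% of genes tested. This call rests on sub-cluster 10, which holds 44 of the 50 jugular-like UMIs and whose own jugular list was low. The other jugular-like nuclei had 0.00893 (0.00328 to 0.0194, 6 UMIs), against 0.0126 (0.00668 to 0.0215) in nodose-like nuclei, and without sub-cluster 10 no member was called higher in jugular-like nuclei. The 9 members tested here had a median log2 ratio of -0.28, against 0.02 over all genes.

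P2ry1 (chr3:61002795-61008982, plus strand), an ADP receptor coupled to calcium release, marked a jugular-like sub-cluster. In sub-cluster 11, led by Cdh9 and Tafa4 and high in Piezo2 (25.5), it was at 1.92 (1.48 to 2.43, 67 UMIs) (female library) and 2.81 (2.49 to 3.15, 284 UMIs) (male library). It was seen in 22 of 25 female and 64 of 73 male nuclei of the sub-cluster. The next sub-clusters were nodose-like 2 at 0.543 (0.469 to 0.626) and nodose-like 5 at 0.535 (0.428 to 0.66), which did not differ beyond their intervals. Between whole classes it differed by less than 2-fold, with 0.293 (0.257 to 0.333) and 0.441 (0.411 to 0.473) in neuron-like and 0.23 (0.178 to 0.293) and 0.385 (0.33 to 0.448) in glia-like nuclei. Per 100 UMIs of the neuron list it had 0.363 and 0.483 in neuron-like, and 0.591 (0.457 to 0.752) and 0.559 (0.478 to 0.649) in glia-like nuclei. Over the 20 clusters P2ry1 was highest in fibroblast-like cluster 8, at 0.568 (0.416 to 0.758), and satellite glia-like cluster 3, at 0.561. The intervals of 9 other clusters overlapped that of cluster 8. The antisense neighbour of P2ry1, Gm37035, was at 0.331 in sub-cluster 11 and at 0.0409 over all nuclei. The sources used here do not give the strand setting of the counting, and how reads of an overlap were assigned was not tested.

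P2ry14 (chr3:59113855-59153618, minus strand), a receptor for UDP-glucose, was higher in neurons than in glia, and also present in several other classes. Neuron-like nuclei had 1.07 (1 to 1.15, 853 UMIs) (female library) and 1.01 (0.969 to 1.06, 1864 UMIs) (male library), and glia-like nuclei 0.317 (0.256 to 0.39) and 0.304 (0.255 to 0.36). The log2 ratios were 1.75 (1.44 to 2.09) and 1.73 (1.49 to 2.0). It was present in all neuron sub-clusters, from 0.43 in sub-cluster 9 to 1.86 in jugular-like sub-cluster 10, and jugular-like exceeded nodose-like nuclei by less than 2-fold, with log2 ratios of nodose-like over jugular-like of -0.52 (-0.74 to -0.31) and -0.40 (-0.55 to -0.26). Cerebellar granule-like nuclei, 378 of 402 from the female library, had 1.09 (0.905 to 1.3) there, and pituitary-like nuclei had 0.808 over both libraries. P2ry14 and P2ry13 lie within Med12l on the other strand. Med12l was at 1.45 in neuron-like, 0.713 in glia-like, 2.48 in granule-like and 2.26 in sub-cluster 10 nuclei. Over the 20 clusters its log2 level followed that of P2ry14 with a Pearson correlation of 0.831, given as a description. The part of Med12l reads in the P2ry14 counts was not tested.

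P2ry2 and P2ry13 had few UMIs. P2ry2 (chr7:100996568-101012866, minus strand), a receptor for ATP and UTP, was highest in myelinating Schwann-like nuclei, with 0.24 (0.162 to 0.343, 30 UMIs) and 0.15 (0.0987 to 0.218, 27 UMIs). In satellite glia-like nuclei it had 0.0618 and 0.046, and in neuron-like nuclei 0.034 and 0.0343. The log2 ratio of neuron-like over glia-like was -2.03 (-2.80 to -1.30) and -1.37 (-1.97 to -0.75). P2ry13 (chr3:59207892-59210882, minus strand), an ADP receptor of macrophages and microglia, had 31 UMIs in all. Macrophage-like nuclei held 3 in each library, at 0.108 (0.0223 to 0.316) and 0.102 (0.021 to 0.297), against 7 and 10 in the far larger neuron-like class. The log2 ratios of macrophage-like over neuron-like were 3.74 (1.03 to 5.75) and 4.38 (1.73 to 6.18).

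Between the libraries, no member differed 2-fold in neuron-like nuclei. None was called higher in the male, where 2.41% of genes were, or in the female library, where 1.33% were. P2rx5 came nearest, with a log2 ratio of male over female of -0.99 (-1.83 to -0.14) on 28 and 24 UMIs. P2ry1 was higher in the male library, at 0.59 (0.38 to 0.81). It was also higher there among nodose-like nuclei, at 1.15 (0.75 to 1.60), and among jugular-like nuclei, at 0.85 (0.54 to 1.17), but not among the neuron-like nuclei without a type, at -0.51 (-0.93 to -0.07). Among nodose-like sub-clusters the ratio was 1.12 (0.57 to 1.75) in sub-cluster 2 and 1.21 (0.05 to 3.0) in sub-cluster 5. The nodose list of sub-cluster 2 was itself low, and sub-cluster 5 had 81 male and 5 female UMIs. In sub-clusters 4 and 7 it was 0.38 (-0.52 to 1.37) and 0.30 (-0.93 to 1.85). The jugular-like value was carried by sub-cluster 11, which holds 284 of 354 male and 67 of 110 female UMIs and a larger share of male than of female jugular-like nuclei (73 of 377 and 25 of 185). Within it the ratio was 0.54 (0.16 to 0.96), and in the other jugular-like nuclei it was -0.03 (-0.59 to 0.56). Outside neurons P2ry1 was also higher in the male library in some classes. The ratio was 0.78 (0.27 to 1.33) in satellite glia-like, 1.18 (0.48 to 1.94) in fibroblast-like and 0.89 (0.06 to 1.82) in barrier fibroblast-like nuclei. A single nucleus gave 22 of the 117 male satellite glia-like UMIs. In nuclei of unnamed clusters the ratio was 1.41 (0.33 to 2.89). In Schwann-like, endothelial-like and pituitary-like nuclei the interval includes 0. So it does within satellite glia-like clusters 3 and 10, fibroblast-like clusters 4 and 8 and unnamed clusters 13 and 17. In Schwann-like cluster 6 P2ry1 was lower in the male library, at -1.68 (-2.83 to -0.05), on 40 male and 6 female UMIs. P2rx3 was at -0.25 (-0.36 to -0.14) over all neuron-like nuclei, at -0.05 (-0.21 to 0.11) over nodose-like, at -0.27 (-0.47 to -0.06) over jugular-like and at -0.68 (-0.95 to -0.41) over those without a type. The median over the 9 members tested was -0.04, and 0.02 over all genes.

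P2rx7 was lower in the male library in macrophage-like and glia-like nuclei. The log2 ratio of male over female was -1.14 (-1.62 to -0.69) in macrophage-like, -0.58 (-0.81 to -0.35) in Schwann-like and -0.61 (-0.87 to -0.35) in satellite glia-like nuclei, while P2rx4 in macrophage-like nuclei was at -0.14 (-0.74 to 0.45). The glia-like clusters were themselves uneven between the libraries. Within Schwann-like clusters the ratio was -0.31 (-0.62 to -0.01) in cluster 1, with 523 female and 166 male nuclei, and 0.07 (-0.85 to 1.39) in cluster 6, with 18 and 529. Within satellite glia-like clusters it was -0.57 (-1.07 to -0.01) in cluster 3 (61 and 584 nuclei), -0.50 (-0.96 to -0.06) in cluster 10 (230 and 191) and 0.31 (-0.36 to 0.90) in cluster 16 (273 and 49). P2rx7 was thus lower in the male library in clusters 1, 3 and 10, while the intervals of clusters 6 and 16 include 0. On few male UMIs, the ratio was also below 0 in fibroblast-like nuclei, at -1.72 (-3.38 to -0.49), and pituitary-like nuclei, at -2.79 (-6.18 to -1.20). The fibroblast-like value joins clusters that were uneven between the libraries. Cluster 4 (527 female and 60 male nuclei) held all 26 female UMIs. Within it the ratio was -0.8 (-4.21 to 0.91), an interval that includes 0. In barrier fibroblast-like nuclei, at -1.19 (-2.68 to 0.10), and endothelial-like nuclei, at -0.07 (-0.94 to 0.81), the interval includes 0. So does that of neuron-like nuclei, at 0.32 (-0.09 to 0.76).

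P2rx2 was higher in the male library in neuron-like nuclei, by less than 2-fold, at 0.30 (0.13 to 0.46). It was at 0.24 (0.04 to 0.45) over nodose-like and, on 62 male and 18 female UMIs, at 0.92 (0.17 to 1.79) over jugular-like nuclei. Over neuron-like nuclei without a type it was at -0.18 (-0.49 to 0.15). Outside neurons, P2rx2 was also higher in the male library in some classes. The ratio was 2.38 (0.98 to 4.51) in endothelial-like, 2.16 (1.13 to 3.52) in barrier fibroblast-like and 1.36 (0.61 to 2.18) in fibroblast-like nuclei. These rest on 4, 8 and 22 female UMIs. Granule-like nuclei, 24 of them male, had 2.75 (0.87 to 4.13). The neuron list was higher in the male library in these classes as well. Per 100 UMIs of that list, P2rx2 had 0.213 (female) and 0.621 (male) in endothelial-like and 0.429 and 0.92 in barrier fibroblast-like nuclei. The intervals overlap. For P2rx3 the ratio was -0.07 (-1.16 to 1.03) in endothelial-like, 0.82 (-0.22 to 2.03) in barrier fibroblast-like and 0.82 (0.12 to 1.55) in fibroblast-like nuclei. The part of neuron RNA in these ratios was not tested. The fibroblast-like value of P2rx2 joins cluster 4 (527 female and 60 male nuclei), at 0.13 (-2.45 to 1.71), and cluster 8 (26 and 422), at -0.32 (-1.76 to 2.22). In satellite glia-like nuclei, at 0.32 (-0.18 to 0.84), Schwann-like nuclei, at 0.62 (-0.02 to 1.32), and pituitary-like nuclei, at 1.08 (-0.20 to 2.18), the interval includes 0. Over all glia-like nuclei the ratio was 0.44 (0.05 to 0.85) for P2rx2 and 0.51 (0.14 to 0.9) for P2rx3. Within each single glia-like cluster the interval of both genes includes 0.

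Of 34 other genes of purinergic signalling (further receptors, ectonucleotidases, ATP release and adenosine handling), 25 could be tested between neuron-like and glia-like nuclei, and 4 were called higher in neurons and 6 in glia, beside 13.3% and 13% of all genes. The ectonucleotidase list, mainly of enzymes that break down extracellular nucleotides, was divided. Entpd3, Nt5e and Acpp were higher in neurons, with log2 ratios over both libraries of 1.31 (1.11 to 1.53), 1.14 (0.85 to 1.46) and 1.21 (1.03 to 1.40). Panx2, which encodes a pannexin, was also higher in neurons, at 1.03 (0.64 to 1.47). Entpd1, Entpd2, Enpp1, Enpp2 and Alpl were lower in neurons, from -3.01 (-3.30 to -2.74) for Enpp1 to -1.32 (-1.52 to -1.12) for Enpp2, as was Ada, adenosine deaminase, on few UMIs, at -1.41 (-2.31 to -0.47). The median over the 25 was 0.09, and -0.13 over all genes.

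Against neurons, 9 of 25 were called higher in macrophage-like nuclei and 2 lower, beside 16.0% and 9.29% of all genes, with a median of 0.69 beside 0.21 over all genes and 0.00 over the members. P2ry6, a UDP receptor, was at 6.27 (5.73 to 6.83), Entpd1 (CD39) at 5.53 (5.22 to 5.84) and P2ry12, an ADP receptor, at 2.22 (1.89 to 2.52), on 79, 176 and 94 UMIs in macrophage-like nuclei. P2ry12 also lies within Med12l on the other strand, and Entpd1, Entpd2, Enpp2 and Panx2 each overlap 1 other gene. Slc29a3 was at 1.90 (1.23 to 2.45) and Enpp1 at 2.41 (1.56 to 3.10), and Alpl, Slc17a9, Adora2b and Ada rested on 8 UMIs or fewer there. Entpd3 and Panx2 were lower, at -1.39 (-2.28 to -0.71) and, on 1 UMI, -2.62 (-8.51 to -0.72).

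Between neuron types, 23 of these genes were tested, and 2 were called higher in nodose-like and 2 in jugular-like nuclei, beside 5.74% and 5.48% of all genes, with a median of -0.16 against 0.02. Acpp, which makes adenosine from AMP, was at -3.52 (-3.76 to -3.30) and Nt5e, which does the same, at -1.29 (-1.53 to -1.06), both higher in jugular-like nuclei. The adenosine receptor gene Adora2a was at 2.09 (1.67 to 2.55) and Enpp1 at 1.32 (0.54 to 2.20). Between the libraries P2ry6 was higher in male neuron-like nuclei, on 41 and 6 UMIs, at 1.47 (0.32 to 3.09), the only 1 of 24 tested to be called, with a median of 0.06.

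The genes most like each member over the 20 clusters were ranked by the Pearson correlation of log2 levels among 13422 genes with at least 200 UMIs, for the 6 members that reached this number. Clusters share libraries and RNA from other cells, so these values are descriptions. The leading genes were Pcsk1 (0.94), Rab3b (0.93), Clec2l (0.92) for P2rx2, and Gnal (0.96), Scn9a (0.96), Ppef1 (0.95) for P2rx3, whose list includes the sodium channel gene Scn9a. For P2rx7 they were Cttnbp2nl (0.93), Iqgap2 (0.92), Gm10863 (0.91), and for P2rx4 they included Tmem260 (0.88), Arid1a (0.88). For P2ry1 they were Capn1 (0.91), Panx1 (0.90), Fam189b (0.90), with the ATP release channel gene Panx1 among them, and for P2ry14 Prkce (0.90), 1700019D03Rik (0.89), Brinp2 (0.88). P2rx2 and P2rx3 correlated at 0.623, and P2rx4 and P2rx7 at 0.541.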

How the data were processed

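Single-nucleus RNA was measured in 1 library of pooled vagus nerve ganglia per sex. UMI counts of each gene in each nucleus were deposited by the authors, made with Cell Ranger 7.1.0 on mm10 with introns included, after a debris, gene and UMI filter with DIEM, and joined with read-depth normalization between libraries by cellranger aggr, which thins the reads of the deeper library. Barcode and gene-name columns were used as deposited. The annotation release and strand setting were not given in the sources used. Coordinates are from GENCODE vM21 (GRCm38).

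Each nucleus was brought to the median depth and its values taken as log2(1 + value), and genes in at least 3 nuclei gave 10 principal components and 20 Louvain clusters (igraph, 243 neighbours). The members, genes overlapping them, the listed pathway genes and sex-linked genes were left out. A cluster took the name of the marker list with the highest mean log2 fold (at least 0.4, with 3 markers 1.5-fold up), unless another list had more of its 10 top genes. Neuron-like nuclei were clustered again with 20 components into 12, after 10 components with 8 and 12 clusters had been tried, and named nodose-like or jugular-like by whichever list was higher by at least 0.5, with no minimum, unless shallow or led by a sympathetic or glial list. These limits were set after clusters were seen. No doublets were removed here, beyond the possible ones the study says it took out with Cell Ranger and DIEM. The members and lists were chosen with earlier results of these data known. All members are named, with the genes overlapping them, pathway genes called in a comparison, and the 3 genes most like each member, except that a few genes are not reported here.

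Sums of UMIs carry exact Poisson intervals, ratios exact conditional binomial intervals and shares Clopper-Pearson intervals, all at 95%. No test was run: between the sexes each has 1 library, and between classes the 2 libraries would leave 1 residual degree of freedom. The calls were tested on simulated data, in which changed genes were drawn from those with at least 20 UMIs expected in each class and library. An earlier form of this check, which also drew genes of lower counts, had fallen short for macrophage-like against neuron-like nuclei, where genes of few UMIs are called by counting error alone, and so calls there are read with their intervals. Alternatives changed the minimum UMIs, depth, weighting of nuclei, clustering, mixed nuclei, UMIs added, fold limit and library. Those that added UMIs in proportion to class size, kept only named neuron sub-clusters, or left out neuron sub-cluster 10, alone or with 2, were chosen after seeing the data.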

Additional observations from a re-analysis of the deposited data

Results flagged for a closer look

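With 1 library of each sex, a class contrast that points one way in the female and the other way in the male library was marked, and the difference between the libraries was not tested. P2ry13 was at -0.73 (female) and 0.01 (male) for neuron-like over glia-like nuclei (log2 ratios throughout). For macrophage-like over neuron-like nuclei, P2rx5 was at -0.77 and 1.71, P2rx6 at 1.33 and -0.51 and P2ry2 at -0.94 and 0.56, on 0 to 2 UMIs in the macrophage-like nuclei of each library. The male sign of P2ry2 comes from the 0.5 UMIs added to both sums. Its male level was 0.0339 in macrophage-like and 0.0343 in neuron-like nuclei, so without the addition it was lower in macrophage-like nuclei of both libraries. For nodose-like over jugular-like nuclei, P2rx4 was at -0.10 and 0.23 and P2rx7 at -0.22 and 0.65. The interval of every one of these values that has both ends includes 0, and none of these contrasts was called.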

How the results depend on the processing

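Each count of members called was recomputed under the alternatives, giving 102 values, of which 90 stayed within 1.5 times the count reported. The share of all genes called under the same alternative follows each count that did not. With a limit of 1.5-fold, 4 members were higher in neuron-like than in glia-like nuclei (P2rx2 and P2rx6 added, 19.6%), 2 in jugular-like than in nodose-like (P2rx5 added, 9.53%), 1 in male neuron-like nuclei (P2ry1, 8.1%) and 1 in female (P2rx5, 5.1%). P2rx5 alone was also called higher in female neuron-like nuclei, a count of 1, with 5 UMIs added (1.59%), with the mean over nuclei (3.6%), with 30 principal components of 3000 genes (1.54%), and with members and pathway genes kept in the clustering (1.33%). Leaving out 246 mixed nuclei gave 2 members higher in jugular-like nuclei, P2rx5 and P2rx6 (5.33%). Without neuron sub-cluster 10 the count was 0 (5.55%), as P2rx6 then had under 20 UMIs. Without sub-clusters 2 and 10 it was 1, but P2ry1 in place of P2rx6 (6.37%), and P2rx2 stayed called higher in nodose-like nuclei under both. With 5 UMIs added, 6 members were higher in macrophage-like nuclei (55%), where adding the same number to a far smaller class raises its level by construction. With UMIs added in proportion to class size, the count stayed at 3. In the female library alone, 4 members were higher in neuron-like than in macrophage-like nuclei, P2rx2 and P2ry1 added (19.8%). Of 430 ratios of single members under the alternatives, 399 lay within the interval of the value reported, 31 moved outside it, and no called ratio changed sign. No paired analysis was possible because the results come from no test, although ratios between classes were taken within each library. Depth limits P2rx5, P2rx6, P2ry2 and P2ry13 most.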
